A study of Homo sapiens with 12 samples.

Results

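The anti-Hsp60N antibody was compared with control IgG in MDA-MB-231 cells that were under hydrogen peroxide (H2O2), by RNA sequencing. MDA-MB-231 is a mesenchymal-like line from a human breast cancer. The comparison rests on 4 of the 12 libraries of the study, grouped by their labels: 2 labelled anti-Hsp60N with H2O2 and 2 labelled IgG with H2O2. This comparison and the gene lists below were chosen with earlier results of these data known. The other 8 libraries are 2 of MDA-MB-231 under IgG without H2O2 and 2 for each of the same 3 treatments in HCT116, a colon cancer line. H2O2 was given at 100 µM for 8 h, and both lines grew in medium with 10% serum. The labels give neither the dose of the antibody, nor how long it was applied, nor what the N in its name stands for. No group received the antibody without H2O2, so an altered response to H2O2 and an effect of the antibody that needs no H2O2 cannot be told apart. With 2 libraries a group, the smallest two-sided exact permutation p for a single value is 0.333, so the tests below borrow the spread from all 12 libraries. Nothing in the labels says that the 2 libraries of a group came from separate cultures, and the p-values then measure only the spread between these libraries.

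Hsp60, encoded by HSPD1, is the chaperonin of the mitochondrial matrix, a barrel that folds imported proteins together with its lid, Hsp10, encoded by HSPE1. When unfolded protein builds up in the matrix, mammalian cells are known to raise mitochondrial chaperones and proteases and to engage the ATF4 programme. Hsp60 has also been described at the surface of tumour cells and outside cells, where Toll-like receptors have been reported to sense it. H2O2 is an oxidant whose known responses include the NRF2 and p53 programmes and a stop in cell division.

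Expression was given as TPM, a transcript abundance per gene length and library total. It keeps no read depth, so the depth of each library is unknown. The gene table held 23686 symbols, of which 13902 were tested: those that reached 1 TPM in 2 or more libraries, without small RNA genes. Fold changes are differences of log2(TPM + 1), antibody with H2O2 minus IgG with H2O2 unless another comparison is named, and understate the change of genes with low TPM. Adjusted p-values come from limma over all 13902 genes. The 6 MDA-MB-231 libraries carried the markers of the line: VIM was at 2233 to 2550.81 TPM, AXL at 292.82 to 356.98 TPM and CD44 at 694.47 to 775.35 TPM. The epithelial genes CDH1, ESRP1 and RAB25 and the hormone receptor genes ESR1 and PGR reached at most 0.65 TPM. SPARC, often high in mesenchymal cells, was at only 0.45 to 0.81 TPM, and EPCAM was at 22.64 to 25.32 TPM. Among immune markers, MS4A1 and NKG7 were at 0 in all 6 libraries and PTPRC reached at most 0.04 TPM. Others were detected, with CD14 at 4.16 to 6.46 TPM and CSF1R at 2.03 to 3.24 TPM. The 12 immune markers summed to 195.88 to 212.93 TPM with the antibody and to 200.9 to 208.34 TPM with IgG and H2O2, of which CD68, a lysosomal protein gene, held 182.8 to 204.23 TPM over the 6 libraries. The 11 fibroblast and endothelial markers summed to 8.05 to 8.11 TPM with the antibody and 8.27 to 8.42 TPM with IgG and H2O2, with DCN at 0 throughout. Of these, PECAM1 was at 1.86 to 2.9 TPM, KDR at 2.14 to 2.6 TPM, PDGFRB at 2.05 to 2.83 TPM and COL1A2 at 0.98 to 1.77 TPM.

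The transcriptomes with and without the antibody were closely correlated. Across the genes tested, the log2(TPM + 1) values of an antibody library and an IgG with H2O2 library had Pearson correlations of 0.9959 to 0.997 over 4 pairs of libraries. The antibody libraries correlated with each other at 0.9968 and the IgG with H2O2 libraries at 0.9973. In the same line, IgG with H2O2 libraries and IgG libraries correlated at 0.9957 to 0.9965 over 4 pairs, an overlapping range. Yet H2O2 changed 389 of 13902 genes at a limma adjusted p under 0.05, so correlations this high do not show that few genes differ. Antibody and IgG libraries correlated at 0.9949 to 0.9961 over 4 pairs. All these correlations are descriptions across genes, which are not independent replicates. Only 2 of 13902 genes passed an adjusted p under 0.05, a share of 0.0144%. Both were higher with the antibody, GATSL1 and HERC2P4, and both had low TPM. At an unadjusted p under 0.05, 652 genes were higher (4.69%) and 1183 lower (8.51%). Leaving out 1 library at a time left 4 genes past the adjusted threshold without antibody replicate 2, 3 without IgG with H2O2 replicate 2 and 2 without antibody replicate 1. It left 1 gene when any 1 of the other 9 libraries, those of HCT116 included, was left out.

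The data bounded the size of most changes. Of 10086 genes with a mean of at least 5 TPM over the 4 libraries, 9895 had a 95% interval that lay wholly within 1.5-fold in either direction, which is 98.1%. The median half-width of that interval was 0.166 on the log2 scale. In the same set, 15 genes had a fitted change of 1.5-fold or more, 12 higher and 3 lower with the antibody, and none of the 15 passed the adjusted threshold. In 10 of the 15, the libraries of the groups did not overlap, as in 16.8% (higher) and 31.4% (lower) of all genes tested. EGFL8, a secreted EGF-like domain protein gene, was at 7.8 and 9.29 TPM with the antibody and at 4.88 and 3.54 TPM with IgG and H2O2 (log2 difference 0.88, SE 0.20, limma adjusted p = 0.217). CCDC85B was at 128.13 and 184.31 TPM with the antibody, against 98.08 and 100.29 TPM (0.63, SE 0.20, limma adjusted p = 0.275). Of the 12 higher genes, 7 had a transcript GC content of at least 60%, among them C4orf48, PCSK1N, PRR7, TPGS1 and TMEM160. The highest fitted value, that of the ribosomal protein gene RPL21, rested on 1 library. RPL21 was at 48.12 and 23.02 TPM with the antibody, against 85.88 and 0 TPM with IgG and H2O2, and without IgG with H2O2 replicate 2 its log2 difference was -1.34 in place of 1.88. The lowest, of the read-through entry C1orf151-NBL1, was at 1.99 and 1.63 TPM with the antibody and 8.47 and 8.68 TPM with IgG and H2O2 (-1.77, SE 0.80, limma adjusted p = 0.376). Under IgG without H2O2 that entry was at 4.99 and 0 TPM.

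The call of GATSL1 moved with the way the table splits 2 near-identical entries. GATSL1 was at 1.83 and 2.4 TPM in the antibody libraries and listed at 0 in the other 10 libraries of both lines (limma adjusted p = 0.000116). GATSL2 was at the same 1.83 and 2.4 TPM in the antibody libraries, against 2.49 and 3.19 TPM with IgG and H2O2 and 4.3 and 4.34 TPM with IgG. RefSeq (GRCh38.p14) holds both names as synonyms of 1 gene, CASTOR2, whose protein pairs with the arginine sensor CASTOR1 upstream of mTORC1. Summed, the entries came to 3.66 and 4.8 TPM with the antibody and 2.49 and 3.19 TPM with IgG and H2O2. The sum was higher by 0.44 on the log2 scale (SE 0.23), with a limma adjusted p of 0.424, and with the sum in place of the entries 0 genes passed the adjusted threshold and 1834 passed an unadjusted p under 0.05.

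HERC2P4, a pseudogene of the ubiquitin ligase gene HERC2, was at 2.21 and 1.79 TPM with the antibody, against 0.71 and 0.58 TPM with IgG and H2O2 (0.86, SE 0.11, limma adjusted p = 0.0313). Under IgG alone it was at 1.38 and 1.56 TPM, between the other groups, and it was listed at 0 in all 6 HCT116 libraries. Its related entry HERC2P2 was far more abundant, at 31.41 and 29.47 TPM with the antibody and 32 and 31.85 TPM with IgG and H2O2. Counting can divide reads among such copies, so the value of HERC2P4 is uncertain. Without antibody replicate 2 its call held, and with any 1 of the other 11 libraries left out its adjusted p lay between 0.0696 and 0.179 by limma.

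**Figure D1:**
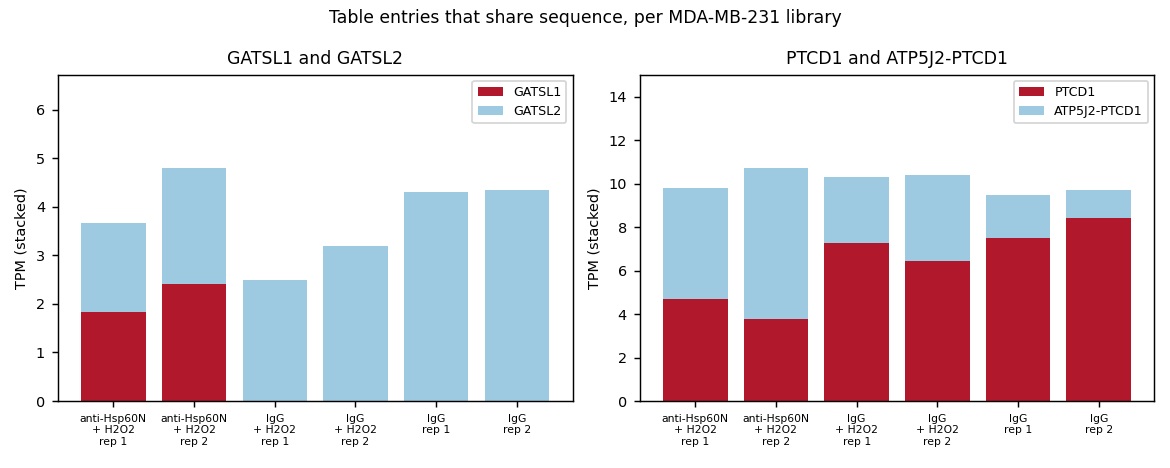
TPM (vertical axis, stacked) of 2 pairs of entries that share sequence in each of the 6 MDA-MB-231 libraries, with antibody libraries at the left, IgG with H2O2 in the middle and IgG at the right. GATSL1 (red) appears only in the antibody libraries, at the height of GATSL2 (blue), and PTCD1 gives way to its read-through entry ATP5J2-PTCD1 while the stacks stay between 9.46 and 10.73 TPM.

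No gene met all parts of the rule for leading genes, which asks for an adjusted p under 0.05, a mean of at least 5 TPM in 1 of the 2 groups compared and libraries that do not overlap, so the 5 genes of smallest p in each direction are given as not passing. Stretches of coding sequence of the leading 3 in each direction are given for a feature that many genes of each direction shared, the content of G and C. Not every stretch follows it. They are 90 bases from the middle of the longest coding sequence in GENCODE release 29 (GRCh38), read 5′ to 3′ along the transcript, with G and C in capitals.
TMEM158: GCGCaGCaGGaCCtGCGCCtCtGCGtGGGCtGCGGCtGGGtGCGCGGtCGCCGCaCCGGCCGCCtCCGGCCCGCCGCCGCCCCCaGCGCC
PRAF2: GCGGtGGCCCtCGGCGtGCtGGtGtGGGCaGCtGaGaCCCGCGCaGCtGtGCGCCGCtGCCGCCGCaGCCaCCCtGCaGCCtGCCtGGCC
MACROD1: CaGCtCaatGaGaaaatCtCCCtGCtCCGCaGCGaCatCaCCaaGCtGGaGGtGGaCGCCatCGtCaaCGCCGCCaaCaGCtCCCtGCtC
C2orf76: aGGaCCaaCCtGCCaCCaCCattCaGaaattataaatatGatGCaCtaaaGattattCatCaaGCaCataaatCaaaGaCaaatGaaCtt
CDCA7: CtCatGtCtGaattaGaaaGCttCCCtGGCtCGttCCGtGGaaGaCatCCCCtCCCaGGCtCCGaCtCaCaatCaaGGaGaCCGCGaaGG
PTCD1: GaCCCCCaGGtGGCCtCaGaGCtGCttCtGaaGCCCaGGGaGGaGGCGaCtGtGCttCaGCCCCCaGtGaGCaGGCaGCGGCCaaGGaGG
The TMEM158 stretch lies in exon 1 at chr3:45225533-45225622, that of PRAF2 in exon 2 at chrX:49072518-49072607 and that of PTCD1 in exon 6 at chr7:99425437-99425526, all on the minus strand. The other 3 cross exon junctions: MACROD1 lies on chromosome 11 (exons 3 to 4), C2orf76 (exons 4 to 6) and CDCA7 (exons 5 to 6) on chromosome 2. G and C made up 84.4%, 77.8% and 60% of the stretches of TMEM158, PRAF2 and MACROD1, the nominally higher genes. They made up 33.3%, 55.6% and 67.8% of those of C2orf76, CDCA7 and PTCD1, the nominally lower genes. Of these only the C2orf76 stretch was low in G and C, that of CDCA7 was near MACROD1 and that of PTCD1 above it. Over whole transcripts the GC content was 45.9% in C2orf76, 46.4% in CDCA7 and 60.9% in PTCD1.

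TMEM158, a membrane protein gene known to be induced by Ras in senescence, was at 104.98 and 112.71 TPM with the antibody, against 84.25 and 83.9 TPM with IgG and H2O2. The log2 difference was 0.37 (SE 0.06, limma adjusted p = 0.137). Under IgG alone it was at 97.65 and 100.24 TPM, so the IgG with H2O2 libraries were the low ones. PRAF2, a membrane protein of the endoplasmic reticulum and vesicles, was at 75.75 and 78.35 TPM with the antibody, 58.57 and 62.07 TPM with IgG and H2O2 and 60.27 and 60.93 TPM with IgG (0.35, SE 0.06, limma adjusted p = 0.151). Here the antibody libraries stood above both other groups. MACROD1, which removes ADP-ribose from proteins, was at 15.84 and 15.5 TPM with the antibody and 11.57 and 11.76 TPM with IgG and H2O2. The linker histone gene H1FX was at 106.13 and 117.84 TPM with the antibody, against 85.57 and 85.7 TPM. C4orf48 was at 34.46 and 47.09 TPM with the antibody and 24.95 and 21.62 TPM with IgG and H2O2, the least even antibody pair of the 5 (log2 difference 0.77, SE 0.15). The last 3 shared an adjusted p of 0.175 by limma.

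Among the nominally lower genes, C2orf76 was at 3.33 and 2.89 TPM with the antibody and 5.59 and 6.19 TPM with IgG and H2O2 (-0.75, SE 0.11, limma adjusted p = 0.103). CDCA7, a partner of the chromatin remodeller HELLS in DNA methylation, was at 11.61 and 11.39 TPM with the antibody, against 14.69 and 15.22 TPM with IgG and H2O2 and 14.79 and 15.61 TPM with IgG (-0.35, SE 0.06, limma adjusted p = 0.137). In both genes the antibody libraries were below all 4 other MDA-MB-231 libraries. NUP133, a scaffold protein of the nuclear pore, was at 27.88 and 26.27 TPM with the antibody and 34.34 and 33.79 TPM with IgG and H2O2. TMEM141 was at 70.76 and 68.51 TPM with the antibody, against 82.43 and 84.13 TPM with IgG and H2O2, and at 70.79 and 67.79 TPM with IgG, close to the antibody libraries. PTCD1, an RNA-binding protein of mitochondria, was at 4.71 and 3.79 TPM with the antibody and 7.26 and 6.44 TPM with IgG and H2O2. Its read-through entry with the neighbouring ATP5J2 went the other way, at 5.08 and 6.94 TPM against 3.05 and 3.98 TPM. The sum of both entries overlapped between the groups, at 9.79 and 10.73 TPM with the antibody and 10.31 and 10.42 TPM with IgG and H2O2.

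**Figure D2:**
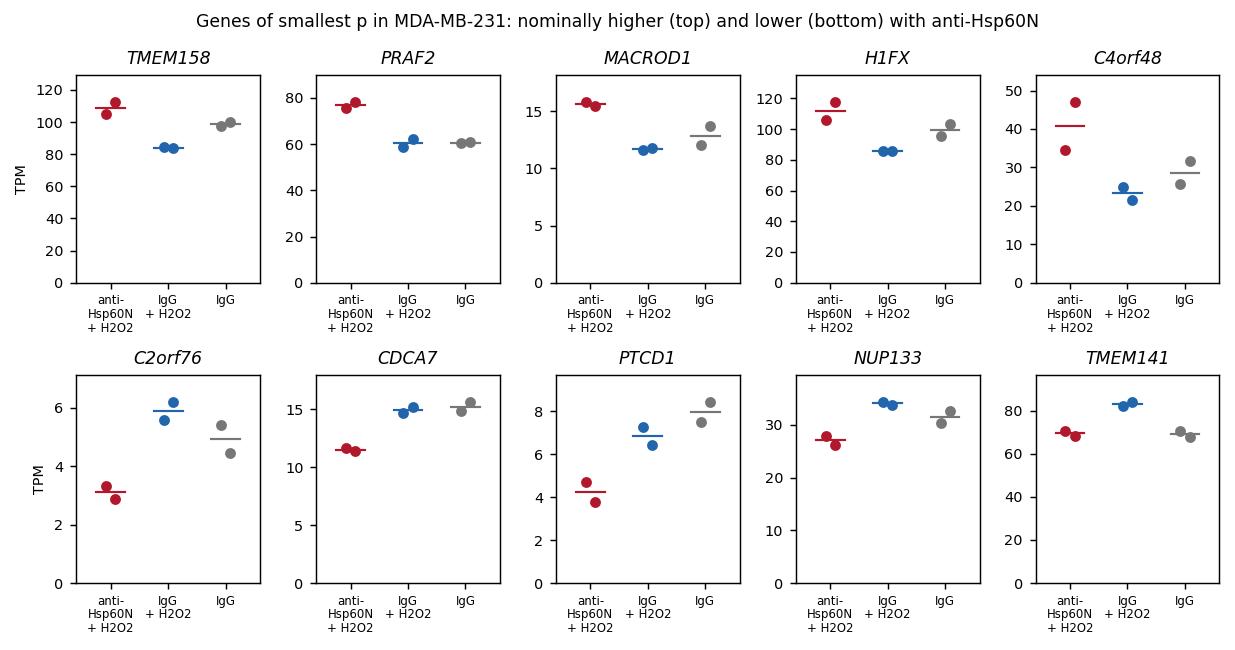
TPM (vertical axis, from 0, a scale for each panel) of the 10 genes of smallest p with a mean of at least 5 TPM in 1 of the 2 groups compared, shown for antibody with H2O2 (red, left), IgG with H2O2 (blue) and IgG (grey) libraries of MDA-MB-231. Points are libraries and lines are group means. In all 10 panels the red and blue points do not overlap, and none of the 10 genes passed the adjusted threshold.

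HSPD1, the gene of the antibody's named target, did not pass the test. It was at 672.96 and 658.48 TPM with the antibody, against 709.03 and 687.09 TPM with IgG and H2O2 and 633.48 and 666.06 TPM with IgG. The log2 difference was -0.07 (95% interval -0.17 to 0.04, limma adjusted p = 0.561). HSPE1 was at 429.36 and 473.17 TPM with the antibody and 431.59 and 442.92 TPM with IgG and H2O2, and these pairs overlapped (0.04, interval -0.12 to 0.21, limma adjusted p = 0.843). None of 17 mitochondrial chaperones and proteases passed, and all 17 intervals lay within 1.5-fold. So did 94.4% of the 13895 genes tested that had an interval, so this does not set the 17 apart. The protease subunit gene CLPP was at 130.21 and 147.3 TPM with the antibody, against 122.92 and 120.56 TPM with IgG and H2O2 (0.18, interval 0.05 to 0.32, limma adjusted p = 0.285). PMPCB, which cuts the targeting sequence from imported proteins, was at 31.59 and 32.69 TPM with the antibody and 37.16 and 36.31 TPM with IgG and H2O2 (-0.19, interval -0.32 to -0.06, limma adjusted p = 0.274). HSPA9, the matrix Hsp70, was at 321.7 and 331.15 TPM against 326.91 and 325.54 TPM with IgG and H2O2. LONP1 was at 116.91 and 122.7 TPM with the antibody and 109.98 and 110.62 TPM with IgG and H2O2, and its interval, -0.0025 to 0.24, included 0.

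**Figure D3:**
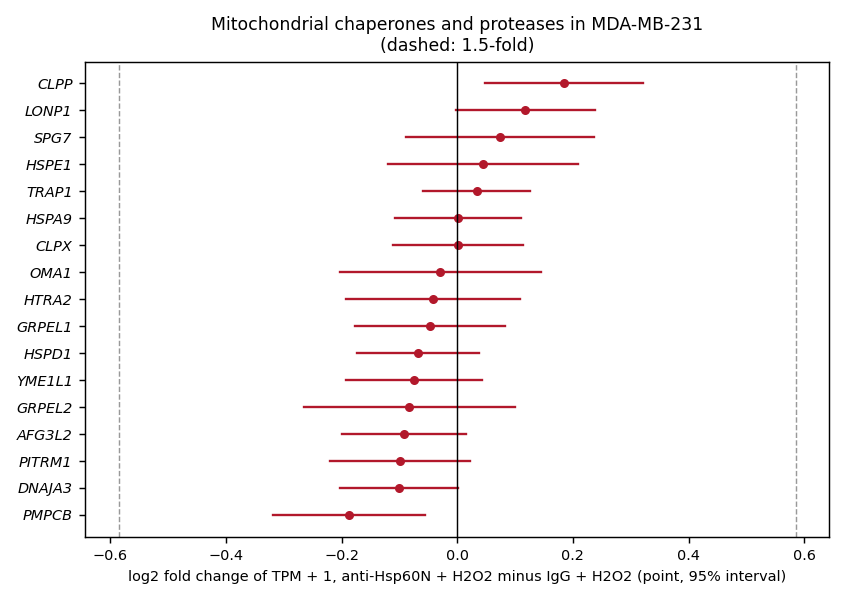
Log2 fold change of TPM + 1 (horizontal axis, antibody with H2O2 minus IgG with H2O2 in MDA-MB-231) of 17 mitochondrial chaperone and protease genes, as fitted values (points) with 95% intervals (lines). All 17 intervals lie between the dashed lines at 1.5-fold, and HSPD1 sits at -0.07.

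The other mitochondrial lists were alike in having no member past the adjusted threshold. Of 20 import genes, 1 was higher (5%) and 5 lower (25%) at an unadjusted p under 0.05, beside 4.69% and 8.51% of all genes. TIMM10, an intermembrane-space chaperone of import, was at 128.85 and 117.93 TPM with the antibody, against 137.02 and 147.01 TPM with IgG and H2O2. TIMM22, the pore of the inner-membrane carrier translocase, was at 64.22 and 67.28 TPM with the antibody and 55.49 and 58.43 TPM with IgG and H2O2. Of 34 nuclear genes of oxidative phosphorylation, 1 was higher (2.94%) and 7 lower (20.6%) at that level. Their median log2 difference was -0.03, beside -0.03 over all genes tested. NDUFS1, a core subunit of complex I, was at 44.62 and 42.7 TPM with the antibody, against 51.41 and 50.51 TPM with IgG and H2O2 (-0.22, SE 0.05, limma adjusted p = 0.217). The ATP synthase subunit gene ATP5D went the other way, at 139.65 and 170.57 TPM against 125.86 and 128.68 TPM. After the part that followed transcript GC and length was removed, described further on, 1 of the 34 was lower and 0 were higher at an unadjusted p under 0.05, against 5.75% lower and 5.87% higher over all genes with a GC value. Of the 20 import genes, 1 was then lower (5%) and 2 were higher (10%), so their larger share of lower genes was no longer there.

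HMOX1, CDKN1A, PLK1 and KIF20A, genes of the H2O2 response, stood close to their IgG with H2O2 levels in the antibody libraries. DNA replication genes did so less. Of 30, 17 rose with H2O2, while 10 were lower with the antibody at an unadjusted p under 0.05 (33.3%, beside 8.51% of all genes). None of the 30 passed the adjusted threshold with the antibody. H2O2 with IgG against IgG alone changed 389 of 13902 genes in this fit (2.8%), 187 higher (1.35%) and 202 lower (1.45%). That comparison shares its IgG with H2O2 libraries with the antibody comparison, so the values are only set side by side. A gene that happened to be high in those libraries would be higher with H2O2 and lower with the antibody. HMOX1, the haem-degrading NRF2 target, was at 72.13 and 64.12 TPM with the antibody, 70.39 and 74.23 TPM with IgG and H2O2 and 29.27 and 30.18 TPM with IgG. CDKN1A, the p53-induced inhibitor of cyclin-dependent kinases, was at 194.24 and 200.47 TPM with the antibody, 191.42 and 199.12 TPM with IgG and H2O2 and 122.37 and 126.99 TPM with IgG. In both genes the antibody and IgG with H2O2 libraries overlapped, far above IgG. The mitotic kinase gene PLK1 was at 83.65 and 85.89 TPM with the antibody, 80.66 and 84.14 TPM with IgG and H2O2 and 172.22 and 176.31 TPM with IgG. KIF20A, a motor of cell division, was at 41.35 and 42.06 TPM with the antibody, 41.85 and 42.3 TPM with IgG and H2O2 and 110.48 and 110 TPM with IgG. The 95% interval of the antibody difference was -0.08 to 0.16 on the log2 scale for PLK1 and -0.19 to 0.17 for KIF20A. Among the mitosis genes, 26 of 30 fell with H2O2, while 0 of 30 passed in the antibody comparison. There 1 was higher and 1 lower at an unadjusted p under 0.05 (3.33% each), beside 4.69% and 8.51% of all genes. Of the NRF2 targets, 0 of 27 passed with the antibody and 7 rose with H2O2. Of the p53 targets, 0 of 28 passed with the antibody, while with H2O2 2 rose and 1 fell. Of the ATF4 targets, 0 of 23 passed with the antibody and 5 rose with H2O2. CHAC1, an ATF4 target that degrades glutathione, was at 11.07 and 10.02 TPM with the antibody, against 7.31 and 8.14 TPM with IgG and H2O2 (0.40, SE 0.10, limma adjusted p = 0.217). DDIT3, another ATF4 target that encodes CHOP, went the other way, at 41.81 and 35.39 TPM against 48.21 and 43.2 TPM.

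None of the 856 distinct genes tested on 41 lists passed the adjusted threshold, and the smallest adjusted p among them was 0.185, of MCM6. At an unadjusted p under 0.05, 52 of the 856 were higher (6.07%) and 101 lower (11.8%), beside 4.69% and 8.51% of all genes. In 835 of the 856 the 95% interval lay within 1.5-fold, beside 94.4% of the 13895 genes tested that had an interval. List medians ran from -0.13 for interferon response genes to 0.14 for immediate early genes, around the median of -0.03 over all genes. Since no list had a member past the threshold, what follows gives values, not changes. List shares below at an unadjusted p under 0.05 stand beside 4.69% higher and 8.51% lower of all genes tested. With GC and length removed, they stand beside 5.87% higher and 5.75% lower of all genes with a GC value.

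**Figure D4:**
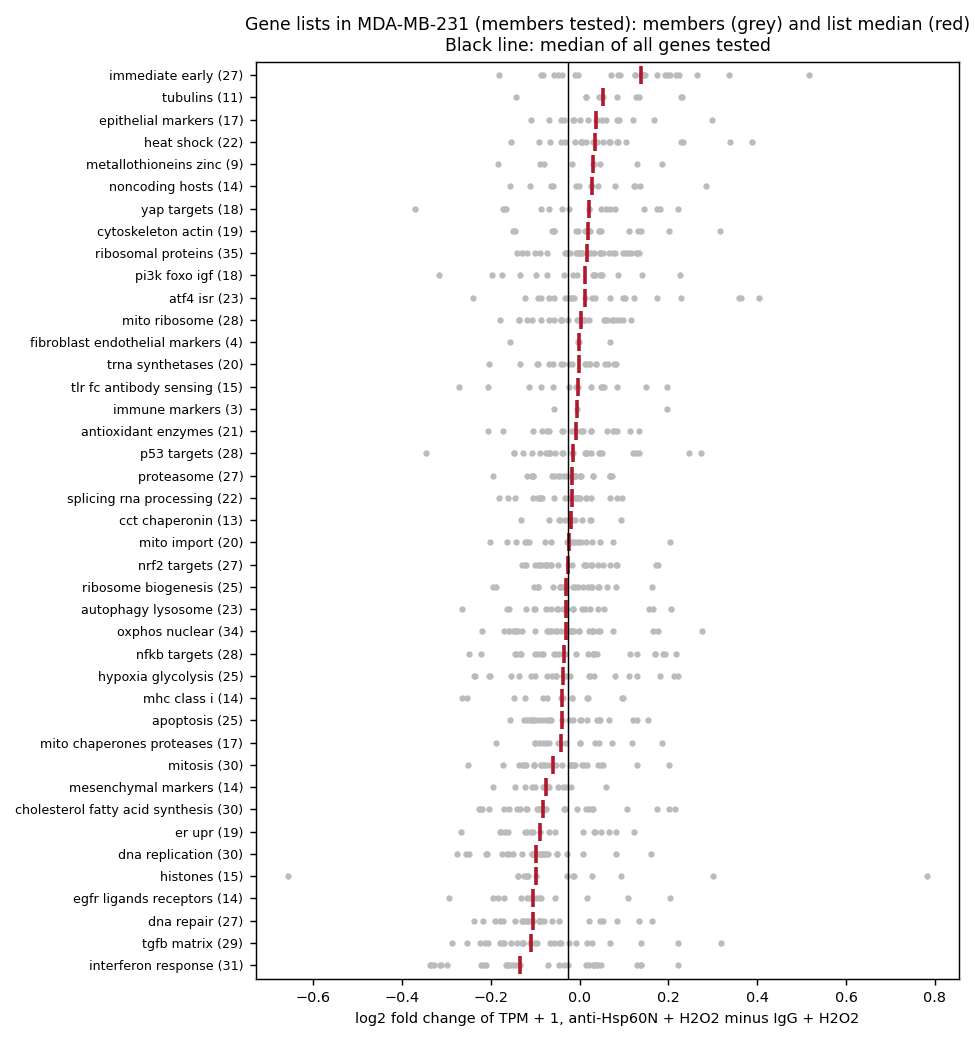
Log2 fold change of TPM + 1 (horizontal axis, antibody with H2O2 minus IgG with H2O2 in MDA-MB-231) of the members (grey points) and the median (red bar) of 41 gene lists, with the number of members tested in brackets and the median of all genes as a black line at -0.03. The medians lie between -0.13 (interferon response) and 0.14 (immediate early), and none of the 856 distinct genes passed the adjusted threshold.

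Of 31 interferon response genes, 9 were lower (29%) and 1 higher (3.23%) at an unadjusted p under 0.05. DDX58, the gene of the RNA sensor RIG-I, was at 39.63 and 38.86 TPM with the antibody, against 49.24 and 50.36 TPM with IgG and H2O2 and 47.22 and 51.79 TPM with IgG (-0.34, SE 0.08, limma adjusted p = 0.217). IFIT1, which binds foreign RNA caps, was at 34.69 and 33.75 TPM with the antibody, 42.35 and 43.18 TPM with IgG and H2O2 and 45.19 and 48.46 TPM with IgG. OASL was at 42.94 and 43.21 TPM with the antibody and 54.78 and 54.35 TPM with IgG and H2O2. In these 3 genes the antibody libraries were below the 4 others. ISG15 and MX1, classical targets of type I interferon, did not share this: ISG15 was at 406.96 and 420.35 TPM with the antibody, against 402.48 and 396.83 TPM with IgG and H2O2. IFITM3, which blocks viral entry, was the higher one, at 839.39 and 868.02 TPM against 699.28 and 766.11 TPM. With GC and length removed, 7 were lower (22.6%) and 1 higher (3.23%), and the list median was -0.08.

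Of 27 immediate early genes, 7 were higher (25.9%) and 1 lower (3.7%) at an unadjusted p under 0.05. JUND, a subunit of the AP-1 transcription factor, was at 58.88 and 77.31 TPM with the antibody, against 45.12 and 48.62 TPM with IgG and H2O2 (0.52, SE 0.13, limma adjusted p = 0.227). Its partner JUNB was at 43.12 and 54.03 TPM with the antibody and 35.84 and 40.35 TPM with IgG and H2O2. Both were highest in antibody replicate 2. MYC was at 135.4 and 133.29 TPM with the antibody, against 120.95 and 123.12 TPM, and CYR61, a secreted matrix-associated YAP target, at 1019.75 and 1037.56 TPM against 909.03 and 913.48 TPM. FOS and EGR1, the usual heads of this list, were low: EGR1 was at 5.33 and 5.38 TPM with the antibody and 4.74 and 5.24 TPM with IgG and H2O2. KLF10 was the lower one, at 37.76 and 38.9 TPM against 42.17 and 45.02 TPM. With GC and length removed, 5 were higher (18.5%) and 0 lower, and the list median was 0.10.

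Of 30 DNA replication genes, 10 were lower (33.3%) and 0 higher at an unadjusted p under 0.05. MCM6, a subunit of the replicative helicase, was at 26.42 and 27.17 TPM with the antibody, against 31.87 and 32.5 TPM with IgG and H2O2 and 30.17 and 32.69 TPM with IgG (-0.26, SE 0.05). POLA1, the catalytic subunit of the polymerase that primes replication, was at 13.16 and 12.08 TPM with the antibody, 15.6 and 15.37 TPM with IgG and H2O2 and 11.43 and 11.89 TPM with IgG (-0.28, SE 0.08, limma adjusted p = 0.263). MCM3 was at 194.27 and 200.13 TPM with the antibody, 220.85 and 216.78 TPM with IgG and H2O2 and 179.47 and 185.96 TPM with IgG. POLA1 and MCM3 in the antibody libraries thus lay between the other groups, while MCM6 lay below both. H2O2 raised 17 of the 30 past its own adjusted threshold. CCNE2, a cyclin of entry into S phase, was at 31.22 and 26.54 TPM with the antibody, 35.87 and 38.16 TPM with IgG and H2O2 and 23.41 and 24.77 TPM with IgG. With GC and length removed, 11 of the 30 replication genes were lower (36.7%) and 0 higher at an unadjusted p under 0.05.

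Of 29 genes of transforming growth factor beta signalling and matrix, 9 were lower (31%) and 2 higher (6.9%) at an unadjusted p under 0.05. The ligand genes were the higher ones: TGFB1 was at 113.03 and 148.77 TPM with the antibody, against 96.73 and 111.46 TPM with IgG and H2O2, and TGFB2 at 41.4 and 45.22 TPM against 36.6 and 37.37 TPM. The receptor gene TGFBR2 was at 99.14 and 94.17 TPM with the antibody and 108.88 and 108.82 TPM with IgG and H2O2. Fibronectin (FN1) was at 93.55 and 89.28 TPM with the antibody, against 105.84 and 112.54 TPM with IgG and H2O2 and 109.4 and 130.64 TPM with IgG. The collagen receptor subunit ITGA2 was at 66.29 and 68.7 TPM with the antibody, against 80.77 and 84.37 TPM. The urokinase receptor gene PLAUR was at 258.26 and 251 TPM with the antibody and 288.48 and 288.16 TPM with IgG and H2O2 (-0.18, SE 0.04, limma adjusted p = 0.217). The counts were the same with GC and length removed, 9 lower and 2 higher.

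Of 22 heat shock genes, 4 were higher (18.2%) and 0 lower at an unadjusted p under 0.05. HSPB1, a small heat shock protein gene, was at 406.5 and 486.04 TPM with the antibody, against 310.5 and 371.08 TPM with IgG and H2O2 and 350.45 and 392.7 TPM with IgG (0.39, SE 0.11, limma adjusted p = 0.261). HSPA6, an inducible Hsp70, was at 3.5 and 3.68 TPM with the antibody, 2.94 and 2.34 TPM with IgG and H2O2 and 0.58 and 0.61 TPM with IgG. HSPA1B was at 400.76 and 451.57 TPM with the antibody, 353.02 and 373.15 TPM with IgG and H2O2 and 193.17 and 213.3 TPM with IgG. HSPA1A, whose near-identical sequence makes the division of reads with HSPA1B uncertain, was at 215.12 and 247.4 TPM with the antibody, 196.01 and 195.98 TPM with IgG and H2O2 and 106.66 and 116.09 TPM with IgG. These 3 Hsp70 genes stood in the same order in every library: antibody with H2O2 above IgG with H2O2, above IgG. DNAJB1, their co-chaperone, had no such step, at 169.61 and 169.33 TPM with the antibody and 169.04 and 168.71 TPM with IgG and H2O2. With GC and length removed, 6 of the 22 were higher (27.3%) and 0 lower.

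Of 19 genes that respond to unfolded protein in the endoplasmic reticulum, 5 were lower (26.3%) and 0 higher at an unadjusted p under 0.05. With GC and length removed, 3 were lower (15.8%) and 2 higher (10.5%). HSP90B1, the Hsp90 of that compartment, was at 720.61 and 711.76 TPM with the antibody, against 822.81 and 797.15 TPM with IgG and H2O2 (-0.18, SE 0.05, limma adjusted p = 0.265). HSPA5, its Hsp70, was at 559.02 and 575.88 TPM with the antibody and 548.8 and 548.59 TPM with IgG and H2O2, so not all members were lower. Of 30 genes of cholesterol and fatty acid synthesis, 4 were lower (13.3%) and 1 higher (3.33%) at that level. After GC and length were removed, 9 were lower (30%) and 1 higher (3.33%). ACACA, which makes malonyl-CoA, was at 11.59 and 11.48 TPM with the antibody, against 13.44 and 13.83 TPM with IgG and H2O2. Of 11 tubulin genes, 4 were higher (36.4%) and 0 lower at an unadjusted p under 0.05. Among them was TUBB2A, at 175.35 and 199.07 TPM with the antibody and 151.97 and 166.48 TPM with IgG and H2O2. TUBB4B was at 1344.17 and 1442.52 TPM with the antibody, 1252.09 and 1299.2 TPM with IgG and H2O2 and 1473.71 and 1506.79 TPM with IgG. Once GC and length were removed, 3 of the 11 tubulin genes were higher (27.3%) and 0 lower.

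Receptors and handlers of antibody and of extracellular chaperones gave no call among 15 genes tested, with a list median of -0.0024. TLR2 was at 10.12 and 9.58 TPM with the antibody, against 12.42 and 11.77 TPM with IgG and H2O2 (-0.27, SE 0.09, limma adjusted p = 0.28). TLR4 was at 19.77 and 20.14 TPM with the antibody and 21.18 and 21.31 TPM with IgG and H2O2. FCGRT, the neonatal Fc receptor gene, overlapped at 26.87 and 23.59 TPM against 23.73 and 25.74 TPM. TRIM21, the cytosolic antibody receptor, was at 27.21 and 25.81 TPM with the antibody and 23.75 and 23.82 TPM with IgG and H2O2 (0.15, SE 0.07, limma adjusted p = 0.364). Of 28 NF-kappaB targets, 3 were higher and 3 lower at an unadjusted p under 0.05 (10.7% each). Once GC and length were removed, 1 was higher (3.57%) and 0 lower. IER3 was at 1968.48 and 2286.38 TPM with the antibody, against 1863.49 and 1787.18 TPM with IgG and H2O2. HIF1A, the oxygen-regulated transcription factor subunit, was chosen after its values were seen. It was at 117.77 and 124.46 TPM with the antibody, against 150.17 and 158.36 TPM with IgG and H2O2 (limma adjusted p = 0.175). NT5E, the ectonucleotidase CD73, was at 162.78 and 163.56 TPM with the antibody and 209.58 and 212.71 TPM with IgG and H2O2 (limma adjusted p = 0.215).

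The sign of the difference moved with the GC content of the transcripts. GC content and length came from the protein-coding transcripts of GENCODE release 29 and were known for 13461 of the 13902 genes, 96.8%. With the genes in 10 equal classes by GC, the median log2 difference was -0.10 in the lowest class, 32% to 40.2% GC, and 0.11 in the highest, 62.5% to 75.2%. In the lowest class 18.5% of genes were lower at an unadjusted p under 0.05, and in the highest class 18.1% were higher. Among genes with a mean of at least 5 TPM, the 470 nominally higher ones had a median GC of 61.4% and the 988 nominally lower ones 44.1%, beside 49.8% over all 9922. Their median transcript lengths were about 1299 bases for the higher and 2152 bases for the lower, beside 1720.5 over all. Spearman's rho between GC and the antibody difference was 0.447 across 13461 genes, which share libraries and are not independent. Measured in each library against the mean of its line, the median of the highest class minus that of the lowest was 0.03 and 0.20 in the antibody libraries. It was -0.11 and -0.06 in the IgG with H2O2 libraries and -0.02 and -0.04 in the IgG libraries. The MDA-MB-231 groups did not overlap in this measure, and antibody replicate 2 stood farthest out among them. In HCT116 the measure also differed widely between libraries of the same group. There it was 0.02 and 0.19 in the IgG libraries, 0.09 and -0.07 with IgG and H2O2 and -0.13 and -0.10 with the antibody. With all libraries 1835 genes passed an unadjusted p under 0.05 (13.2%). Without antibody replicate 2, 937 did, while 1001 did without IgG with H2O2 replicate 1, 1182 without IgG with H2O2 replicate 2 and 2053 without antibody replicate 1. Once a smooth trend on GC and length was removed from each library, 2 genes passed the adjusted threshold, and 790 were higher and 774 lower at an unadjusted p under 0.05. What part the gradient plays in any single gene's difference was not tested.

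**Figure D5:**
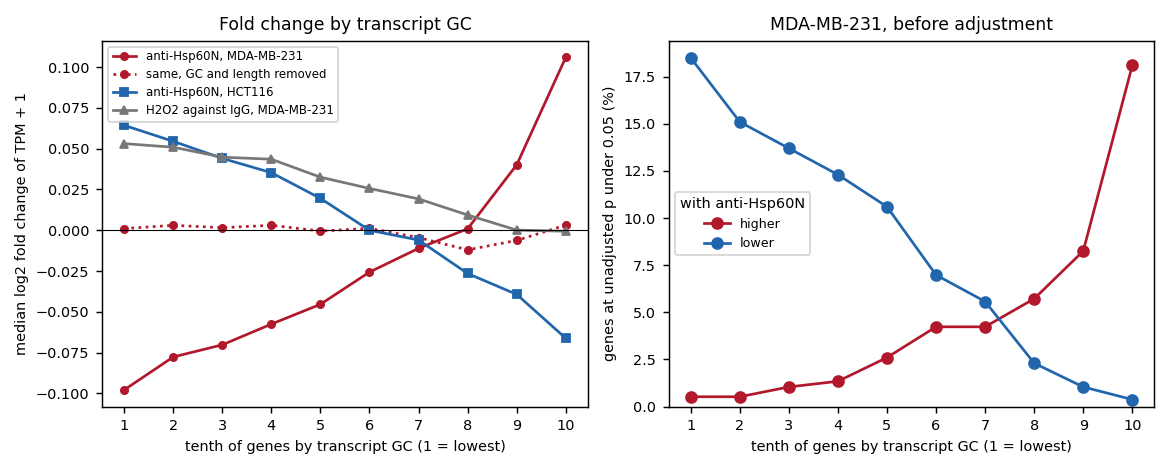
Left, median log2 fold change of TPM + 1 (vertical axis) in 10 classes of genes by transcript GC, from lowest to highest, for the antibody in MDA-MB-231 (red), the same with GC and length removed (red, dotted), the antibody in HCT116 (blue) and H2O2 with IgG against IgG in MDA-MB-231 (grey). Right, percent of genes in each class that were higher (red) or lower (blue) with the antibody in MDA-MB-231 at an unadjusted p under 0.05. The red line on the left runs from -0.10 to 0.11 and the blue line from 0.06 to -0.07.

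In HCT116 the same antibody gave 1 call of 13902 (0.00719%), and 716 genes passed an unadjusted p under 0.05 (5.15%). That gene was the apolipoprotein gene APOC1, at 0.3 and 0.35 TPM with the antibody and 1.41 and 1.17 TPM with IgG and H2O2 in HCT116. In MDA-MB-231 it was at 17.27 and 16.97 TPM with the antibody, against 17.6 and 19.12 TPM. No gene passed in HCT116 when any 1 of 9 libraries was left out, and 4 passed without IgG with H2O2 replicate 2 of HCT116 (415 to 1033 genes at an unadjusted p under 0.05 by limma). The GC gradient ran the other way in HCT116, with class medians from 0.06 in the lowest class to -0.07 in the highest. A test of the difference between the lines gave 2 genes of 13902 (0.0144%), and 1741 passed an unadjusted p under 0.05 (12.5%). Over genes with a GC value, 1711 passed that level, and 1057 once GC and length were removed. The 2 genes past the adjusted threshold were GATSL1 and the entry LOC441461. LOC441461 was listed at 0 in both antibody libraries of MDA-MB-231, against 0.95 and 0.77 TPM with IgG and H2O2. In HCT116 LOC441461 was at 1.13 and 1.06 TPM with the antibody and 0.53 and 0.29 TPM with IgG and H2O2. Its call was lost at a pseudocount of 5 (limma adjusted p = 0.0693), with GATSL1 and GATSL2 summed (0.0546) and when any 1 of 8 of the 12 libraries was left out (0.0788 to 0.216). Leaving out 1 library at a time gave 1 to 4 genes for this difference. HOXD4, a homeobox transcription factor gene, came next among genes with a mean of at least 5 TPM in 1 of the 4 groups, without passing (limma adjusted p = 0.0687). It was at 3.36 and 3.57 TPM with the antibody and 5.03 and 5.03 TPM with IgG and H2O2 in MDA-MB-231. In HCT116 it had a log2 difference of 0.60. The rule also named C4orf48, H1FX, MVD and MPLKIP, with log2 differences of 0.77, 0.38, 0.20 and 0.28 in MDA-MB-231 and -0.49, -0.19, -0.24 and -0.17 in HCT116. VPS41 and CD58 were the reverse, at -0.37 and -0.30 in MDA-MB-231 and 0.11 and 0.18 in HCT116, and none of these 6 passed. C2orf76 and CDCA7, the leading lower genes of MDA-MB-231, had differences of 0.15 and 0.03 in HCT116.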

How the data were processed

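Expression was analysed in 4 of 12 libraries, antibody with H2O2 against IgG with H2O2 in MDA-MB-231, with the other 8 in the same fit. The deposited values were TPM per gene symbol in 1 table with 2 decimals. Per the submitters' processing notes, bcl2fastq 2.20, STAR, RSEM and the build hg19 were used. Tool roles, annotation and further versions were not given in the sources used here, so reads shared between near-identical entries may be divided unevenly. TPM keeps no depth, and no counting interval could be given. Columns were assigned through the description label of each library (0 unassigned).

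From the TPM, log2(TPM + 1) was tested with limma 3.58.1 (R 4.3.3): a variance trend, 6 group means over 12 libraries, 6 residual and 5.43 prior degrees of freedom, two-sided, Benjamini-Hochberg over 13902 genes, threshold 0.05. Of 13956 genes that reached 1 TPM in 2 or more libraries, 54 small RNA genes were left out. The test was checked on simulated data with independent normal noise of the spread fitted here. The simulation held no GC gradient and no division of shared reads, so it does not cover these. Plots used Python 3.11.15 and matplotlib 3.10.9.

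The libraries compared and the gene lists were chosen with earlier results of these data known. Leading genes were to be the 15 highest and 15 lowest calls averaging 5 TPM or more in either group, with separate libraries, filled up to 5 a direction by smallest p, with HSPD1, HSPE1, the member of smallest p of a list and 5 genes a direction for the difference between lines. The remaining genes in the text were picked after their values were seen, and some genes are not reported here. For GC content, the median over protein-coding transcripts of GENCODE release 29 (GRCh38) was matched by gene symbol, and removed with a loess of span 0.3 on GC and log2 length, an alternative added after seeing the data. Other alternatives were the pseudocount, the filter, the scaling, the line fitted alone, no variance trend, small RNA genes kept, a replicate block and leaving out each library.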

Additional observations from a re-analysis of the deposited data

Results flagged for a closer look

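The antibody difference of GATSL1 differed between the lines by the interaction term of the limma fit (adjusted p = 0.00469). It was at 1.83 and 2.4 TPM in the antibody libraries of MDA-MB-231 and listed at 0 in the other 10 libraries. With GATSL1 and GATSL2 summed, the same test gave an adjusted p of 0.467. LOC441461 differed between the lines as well (limma adjusted p = 0.0272): it was listed at 0 in both antibody libraries of MDA-MB-231, against 0.95 and 0.77 TPM with IgG and H2O2, and in HCT116 it was at 1.13 and 1.06 TPM with the antibody, against 0.53 and 0.29 TPM. Its adjusted p was 0.0693 at a pseudocount of 5, 0.0546 with the summed entries and 0.0788 to 0.216 when any 1 of 8 of the 12 libraries was left out. Both entries lie below the level at which the leading genes were named.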

How the results depend on the processing

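The count of genes past the adjusted threshold for the antibody in MDA-MB-231 (2) was 0 with a mean TPM of at least 5 (1533 genes at an unadjusted p under 0.05 by limma), 0 with MDA-MB-231 fitted alone (1721), 0 with GATSL1 and GATSL2 summed (1834) and 1 to 4 without 1 library. For the antibody in HCT116 (1) it was 0 with no filter on low values (1138), 0 with the line fitted alone (735), 3 with small RNA genes kept and 0 to 4 without 1 library. For the difference between lines (2) it was 1 at a pseudocount of 5, 0 with a mean TPM of at least 5 (1525), 4 with small RNA genes kept, 1 with GC and length removed, 1 over genes with a GC value only, 0 with the summed entries (1740) and 1 to 4 without 1 library. The fit of both lines alone is the main fit there and gave no other value. For H2O2 in MDA-MB-231 (389) it was 92 with the line fitted alone, 714 with GC and length removed and 128 to 462 without 1 library. The line alone leaves fewer samples for the spread; the cause of the other moves was not tested.

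The labels number the libraries 1 and 2 in each group and do not say that a number marks a shared culture or day. Deviations of same-numbered libraries correlated at 0.0851 between the antibody and IgG with H2O2 groups of MDA-MB-231 and at -0.103 in HCT116. With a replicate block, 1 gene passed for the antibody in MDA-MB-231 (1794 at an unadjusted p under 0.05) and 0 in HCT116 (689), and with the numbers crossed in HCT116, added after seeing the data, 0 passed there (922).

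GATSL1 lost its call with MDA-MB-231 fitted alone (limma adjusted p = 0.17). HERC2P4 lost its call at a pseudocount of 0.1 (limma adjusted p = 0.159), with the line alone (0.401), with the block (0.117) and with the summed entries (0.0627). In the difference between lines, LOC441461 lost its call at a pseudocount of 5 (limma adjusted p = 0.0693), with the summed entries (0.0546) and without any 1 of 8 libraries (0.0788 to 0.216). There APOC1 passed at a pseudocount of 0.1 (limma adjusted p = 0.0215) and HOXD4 without a variance trend (0.0287). TVP23C-CDRT4 passed for the antibody without antibody replicate 1 (limma adjusted p = 0.0274). The log2 difference of KIF20A changed sign, to 0.0117 with median-of-ratios scaling, 0.00705 with quantile normalization and 0.0257 with GC and length removed, and that of FCGRT changed to -0.0315 with GC and length removed. Single genes were followed through the alternative runs only for a named set, not for all genes tested. Leaving out 1 library at a time, the log2 difference reached both signs in 7 genes of that set, none of them called: CDKN1A (-0.013 to 0.0436), FCGRT (-0.0646 to 0.116), HSPA9 (-0.0201 to 0.0216), HSPE1 (-0.0261 to 0.114), HIST1H3B (-0.133 to 1.7), EEF1E1-MUTED (-0.145 to 2.33) and RPL21 (-1.34 to 5.1). No list had a member past the adjusted threshold in any alternative run. Of the list medians recomputed, 106 moved by more than the spread between libraries and 918 did not. The 2 libraries a group and the unknown depth limit the precision.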
